A study of Mus musculus with 12 samples.

Results

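The mitochondrial ribosomal proteins are described here across mouse small intestinal organoids, as the genes whose symbol is Mrpl or Mrps followed by a number and, in some, a letter. The rule matched 78 of the 55335 entries in both count tables, of which 49 carry a large subunit symbol (Mrpl) and 29 a small subunit symbol (Mrps). All 12 libraries are bulk RNA-seq of epithelial organoids grown from 1 line of a single female Lgr5GFPDTR/+ mouse, whose age is not given in the labels. RANKL organoids spent 3 days in ENR medium (EGF, Noggin and R-spondin) with 3 µM CHIR99021, an inhibitor of GSK3, and 1.5 mM valproic acid, an inhibitor of histone deacetylases. After 1 day in ENR alone, RANKL, a TNF family cytokine known to induce M cells, was given at 100 ng/mL for 6 days. ENR control organoids are labelled as grown in ENR medium for 6 days, and no label says whether they had the pretreatment. Their library names begin with CVENR, which the labels do not spell out, so RANKL and pretreatment cannot be told apart in that comparison. RANKL+CSRM617 organoids had the same course plus CSRM617, known to inhibit ONECUT2, at 40 µM, and RANKL II organoids are the RANKL set that goes with them, for which no label names a vehicle. Each group has 3 libraries from separate differentiation experiments, so p-values measure the spread between cultures of 1 line and not between mice.

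Mitochondria carry their own ribosome, which translates the mRNAs of the mitochondrial genome into core subunits of the respiratory chain and the ATP synthase. Its ribosomal RNAs are made inside the organelle, while all its proteins are encoded in the nucleus and imported. Some of these proteins descend from bacterial ribosomal proteins and others exist only in mitochondrial ribosomes. In the intestinal epithelium, mitochondrial activity is known to change as crypt stem cells give way to absorptive and secretory cells.

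Total counts were 6351155 to 7719157 per library in RANKL and 5795541 to 7577492 in ENR control. They were 10225102 to 14041947 in RANKL+CSRM617 and 8669153 to 11241811 in RANKL II. The 78 genes together took 0.190% to 0.192% of the counts in RANKL, against 0.129% to 0.184% in ENR control, and 0.142% to 0.147% in RANKL+CSRM617, against 0.197% to 0.201% in RANKL II. The 2 loci that collect ribosomal RNA reads, Gm26917 and Gm42418, took 9.71% to 10.7% of counts in RANKL, against 21.9% to 35.5% in ENR control, and 15.3% to 15.8% in RANKL+CSRM617, against 6.44% to 6.71% in RANKL II. Epithelial markers (Epcam, Cdh1, Vil1, Krt8, Krt20) were detected for 5 of 5 genes in every group. Of the other cell types an organoid culture could hold, the summed immune, stromal and endothelial markers reached at most 3.99, 3.2 and 0.726 CPM in any library, with Col1a2, Dcn, Cdh5 and Kdr at 0 in all groups.

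Of the 78 genes, 77 passed the filter on low counts in both comparisons. Mrpl53, a large subunit protein, did not: it had 0, 1 and 0 counts in RANKL, against 1, 0 and 0 in ENR control, and 0 in each RANKL+CSRM617 library, against 2, 0 and 0 in RANKL II. Its exons overlap those of Gm42688 on the same strand over 88% of their length. The median gene of the family had 91 to 246 counts in a library. Per kilobase of reference transcript, the highest levels belonged to Mrpl24, Mrpl52 and Mrpl12, all of the large subunit. Mrpl24, whose bacterial counterpart sits at the exit of the peptide tunnel, averaged 55.4 ± 3.04 CPM per kb in RANKL, 60.0 ± 3.1 in ENR control, 57.7 ± 3.6 in RANKL+CSRM617 and 56.9 ± 3.09 in RANKL II (SD, n = 3). Apart from Mrpl53, the lowest were Mrps33 and Mrps25, at 3.21 and 3.32 CPM per kb as the mean of the 4 groups. The level of Mrps25 was divided by a long reference transcript of 6073 bases. Its exons overlap those of Nr2c2 on the opposite strand over 69.8% of their length, and whether the counting used strand is not known. The order of Mrps33 and Mrps25 changed between groups. Mrps33 lay above Mrps25 in RANKL (3.88 ± 0.881 and 3.53 ± 0.379 CPM per kb) and below it in ENR control (2.51 ± 1.03 and 3.82 ± 0.437 CPM per kb). Mrpl52 and Mrpl12, at 51.8 and 51.7 CPM per kb as the mean of the 4 groups, also changed places. Mrpl52 lay above Mrpl12 in RANKL (39.7 ± 2.54 and 36.7 ± 2.24 CPM per kb) and in ENR control (72.9 and 38.7), and below it in RANKL+CSRM617 (49.3 and 75.2) and in RANKL II (45.4 and 56.3).

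Promoters are shown for the members on which the results below turn most. RefSeq promoter windows of build GRCm38.p6, from 250 bases before to 50 after the annotated start, were found for 69 of the 78 genes, in 75 windows. Mrps26 (chr2:130563507-130563806, plus strand) and Mrpl22 (chr11:58171414-58171713, plus strand) are the members called in opposite directions in the 2 comparisons in both the main fit and the fit with GC offsets. Mrpl52 (chr14:54426659-54426958, plus strand) and Mrpl45 (chr11:97315466-97315765, plus strand) are the large subunit genes with the largest fall and the largest rise with RANKL. Mrps18c (chr5:100798509-100798808, plus strand) and Mrpl23 (chr7:142532782-142533081, plus strand) are the largest falls with CSRM617. Capitals mark matches, on either strand, to the letters searched for ETS factors (CCGGAAG), NRF1 (GCATGCGC), YY1 (AAGATGGC) and an E-box (CACGTG), factors known to act at promoters of nuclear genes for mitochondrial proteins.
Mrps26: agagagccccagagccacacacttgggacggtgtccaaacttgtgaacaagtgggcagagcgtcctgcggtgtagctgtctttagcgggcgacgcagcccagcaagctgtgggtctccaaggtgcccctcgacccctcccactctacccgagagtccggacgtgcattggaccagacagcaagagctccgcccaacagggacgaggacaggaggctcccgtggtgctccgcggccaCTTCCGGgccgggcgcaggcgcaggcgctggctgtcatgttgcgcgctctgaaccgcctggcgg
Mrpl22: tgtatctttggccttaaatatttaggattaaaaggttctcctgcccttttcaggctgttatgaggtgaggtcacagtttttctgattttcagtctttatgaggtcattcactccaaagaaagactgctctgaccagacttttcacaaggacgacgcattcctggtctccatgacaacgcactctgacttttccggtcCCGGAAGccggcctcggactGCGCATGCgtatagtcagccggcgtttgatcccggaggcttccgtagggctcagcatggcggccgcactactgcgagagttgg
Mrpl52: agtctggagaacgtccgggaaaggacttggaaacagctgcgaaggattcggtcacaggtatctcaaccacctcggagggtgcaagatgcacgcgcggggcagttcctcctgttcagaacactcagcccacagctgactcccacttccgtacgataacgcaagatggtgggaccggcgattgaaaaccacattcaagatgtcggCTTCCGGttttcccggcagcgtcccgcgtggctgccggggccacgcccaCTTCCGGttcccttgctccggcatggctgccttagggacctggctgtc
Mrpl45: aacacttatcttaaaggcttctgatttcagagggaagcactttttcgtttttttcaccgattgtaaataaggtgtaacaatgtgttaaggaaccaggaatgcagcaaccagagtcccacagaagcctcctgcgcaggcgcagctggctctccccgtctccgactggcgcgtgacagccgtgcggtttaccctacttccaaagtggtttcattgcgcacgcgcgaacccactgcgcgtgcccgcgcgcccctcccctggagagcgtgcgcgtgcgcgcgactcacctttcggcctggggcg
Mrps18c: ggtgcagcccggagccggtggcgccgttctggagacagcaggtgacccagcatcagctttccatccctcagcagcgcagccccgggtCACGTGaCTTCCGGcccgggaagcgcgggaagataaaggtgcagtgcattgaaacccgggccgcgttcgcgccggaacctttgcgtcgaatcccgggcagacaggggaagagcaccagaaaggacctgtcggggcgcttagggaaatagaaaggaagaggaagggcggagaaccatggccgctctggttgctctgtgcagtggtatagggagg
Mrpl23: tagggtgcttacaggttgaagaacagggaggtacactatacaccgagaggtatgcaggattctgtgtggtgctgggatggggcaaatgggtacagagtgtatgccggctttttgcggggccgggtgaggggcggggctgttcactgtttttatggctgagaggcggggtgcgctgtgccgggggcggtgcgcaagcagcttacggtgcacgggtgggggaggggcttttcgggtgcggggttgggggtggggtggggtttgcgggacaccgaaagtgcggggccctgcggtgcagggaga

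The windows of Mrpl45 and Mrpl23 hold none of these letters. The ETS letters were in 34.7% of the 75 windows of the family, against 8.86% of all 32851 promoter windows and 11.56% of the 21263 windows of protein-coding genes. NRF1 letters were in 10.7%, against 2.71% of all and 3.52% of coding windows, and YY1 letters in 16.0%, against 2.75% and 3.05%. At least 1 of the 3 was in 50.7% of the family's windows, against 13.3% of all windows and 16.7% of coding windows. These matches describe the sequence and no binding was measured. Among genes called lower with CSRM617, 8 of 32 windows held the ETS letters, 5 the NRF1 letters and 5 the YY1 letters. Among those called higher, 6 of 11 held the ETS letters, 0 the NRF1 letters and 2 the YY1 letters. The E-box letters were in 9.33% of the family's windows, against 7.15% of all and 7.83% of coding windows. GGGCGG, letters bound by SP1, was in 52.0%, against 35.7% and 46.2%. A pair of cores bound by ONECUT factors was added to the search after the files were seen. ATTGAT was in 0 of the 75 windows, against 7.54% of all windows and 6.54% of coding windows, and ATCGAT in 2 of 75 (2.67%), against 0.925% and 0.856%.

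Most of the family was not called as changed between RANKL and ENR control. By edgeR (adjusted p under 0.05 over 13570 genes tested), 5 of the 77 genes were higher and 13 lower. These are 6.49% and 16.9% of the family, beside a background of 28.7% of all genes higher and 28.0% lower, and both shares lie below it. Either direction counted, the background was 56.7%. The groups did not overlap for 7 members that were higher and 19 that were lower, beside 32.2% and 31.2% of all genes. The median log2 fold change was -0.08 over the family and 0.00 over all genes, with a range of -0.92 to 0.76 in the family. The median SE of the log2 fold change was 0.13 in the family and 0.13 over all genes. With GC offsets, an alternative fit in which each library's dependence on transcript GC content is removed, 8 were higher and 13 lower, on a background of 27.5% and 25.8% (53.2% either way). With GC and length offsets 9 were higher and 13 lower, on a background of 28.1% and 25.8% (53.8% either way). The main calls that were made again with GC offsets were Mrpl22, Mrpl45, Mrps21 and Mrps36 (higher) and Mrpl49, Mrpl52, Mrps22, Mrps26, Mrps27, Mrps28 and Mrps31 (lower). Of the 18 calls, 9 were made whichever of the 6 libraries was left out.

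Of the genes with an Mrps symbol, 8 of 29 were lower with RANKL (27.6%, beside 28.0% of all genes). Of those with an Mrpl symbol, 5 of 48 were (10.4%). The Mrps symbols include Mrps30 and Mrps18a, which belong to the large subunit, and Mrps36, whose role lies outside the ribosome. None of these was called lower. Mrps26 (ENSMUSG00000037740.8, chr2:130563742-130568695, plus strand, GRCm38), a protein particular to mitochondrial ribosomes, had 18.5, 17.0 and 18.3 CPM in RANKL, against 35.7, 26.7 and 40.9 CPM in ENR control. The groups do not overlap, and the log2 fold change was -0.92 (SE 0.14, edgeR adjusted p = 5.72e-05). Mrps28 had 4.94, 4.75 and 5.15 CPM in RANKL, against 9.02, 8.53 and 7.77 CPM in ENR control, a log2 fold change of -0.78 (SE 0.18, edgeR adjusted p = 0.00171). Every RANKL library lay below every ENR control library for this gene. Mrps12, the counterpart of the bacterial protein S12 of the decoding centre, had 9.76, 6.44 and 9.34 CPM in RANKL, against 11.9, 12.7 and 14.9 CPM in ENR control. Its log2 fold change was -0.62 (SE 0.18, edgeR adjusted p = 0.00794). The call was lost with GC offsets (-0.39, adjusted p = 0.0656) and without RANKL replicate 2 (adjusted p = 0.0568). Of the 11 small subunit genes listed as mitochondria-specific, 6 were lower and 0 higher with a median of -0.31 (5 lower with GC offsets), while 2 of the 15 bacterial-type small subunit genes were lower and 1 higher. As shares, 54.5% and 13.3% of these 2 classes were lower, beside 28.0% of all genes. The classes are lists fixed for this report. Mrps18b, a relative of Mrps18c, and Mrps28, 1 of the 6 called lower, were listed as mitochondria-specific. Another listing of these 2 genes would change the shares.

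In the large subunit, Mrpl52 fell and Mrpl45 rose. Mrpl52 (ENSMUSG00000010406.12, chr14:54426909-54429756, plus strand), a mitochondria-specific protein, had 15.5, 16.7 and 17.6 CPM in RANKL, against 33.2, 31.1 and 27.2 CPM in ENR control. These groups are well apart, with a log2 fold change of -0.88 (SE 0.12, edgeR adjusted p = 1.31e-05). Mrpl45 (ENSMUSG00000018882.12, chr11:97315716-97329920, plus strand) had 51.4, 58.9 and 53.5 CPM in RANKL, against 32.1, 33.3 and 33.1 CPM in ENR control. It sits near the exit of the peptide tunnel, where human MRPL45 holds the ribosome at the inner membrane, and its log2 fold change was 0.73 (SE 0.10, edgeR adjusted p = 1.1e-05). Both calls were made with GC offsets (-0.65 and 0.81) and without any single library. The counterparts of 3 bacterial proteins at the peptide tunnel went different ways. Mrpl4 had 20.4, 19.0 and 20 CPM in RANKL, against 27.1, 27.5 and 30.6 CPM in ENR control, a log2 fold change of -0.51 (edgeR adjusted p = 0.00106). Mrpl23 had 5.72, 5.31 and 4.6 CPM in RANKL, against 5.76, 8.4 and 8.68 CPM in ENR control, so that 1 ENR control library lay just above the RANKL libraries (log2 fold change -0.54, edgeR adjusted p = 0.0336). Mrpl22 was higher (0.49, edgeR adjusted p = 0.0495). Neither lower call was made with GC offsets (-0.20 and -0.27), and the call of Mrpl22 was lost whichever library was left out. That of Mrpl23 was lost when ENR control replicate 2 or 3, or RANKL replicate 2 or 3, was left out (edgeR adjusted p = 0.0809 to 0.111). The stalk proteins Mrpl10, Mrpl11 and Mrpl12, which recruit translation factors, were not called (log2 fold changes 0.00, -0.12 and -0.07).

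Mrps36 matched the symbol rule and had the largest log2 fold change above 0, 0.76 (SE 0.28, edgeR adjusted p = 0.0295). Although named as a ribosomal protein, it is known as KGD4, a subunit of the 2-oxoglutarate dehydrogenase complex. It had 3.14, 3.39 and 2.98 CPM in RANKL, against 2.3, 1.73 and 1.6 CPM in ENR control, so its level was low in both. Leaving out ENR control replicate 2 or 3, or RANKL replicate 1 or 2, ended this call (edgeR adjusted p = 0.0586 to 0.103). Its 3 pseudogene entries had at most 2 counts in a library, and how reads shared with such copies were counted is not known, so its level is uncertain. Mrps21, the counterpart of a bacterial small subunit protein, rose with a log2 fold change of 0.47 (SE 0.14, edgeR adjusted p = 0.00903). It had 15.5, 15.8 and 14.4 CPM in RANKL, against 10.8, 10.7 and 11.9 CPM in ENR control. A pair of small subunit genes had larger values than Mrps21 with a larger error and was not called, and the groups of both overlap. Mrps33 had 3.37, 5.31 and 4.2 CPM in RANKL, against 2.88, 3.86 and 1.6 CPM in ENR control (log2 fold change 0.54, edgeR adjusted p = 0.129). Mrps18c had 2.69, 4.63 and 5.28 CPM in RANKL, against 3.84, 2.93 and 2.06 CPM in ENR control (log2 fold change 0.48, edgeR adjusted p = 0.19).

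**Figure D1:**
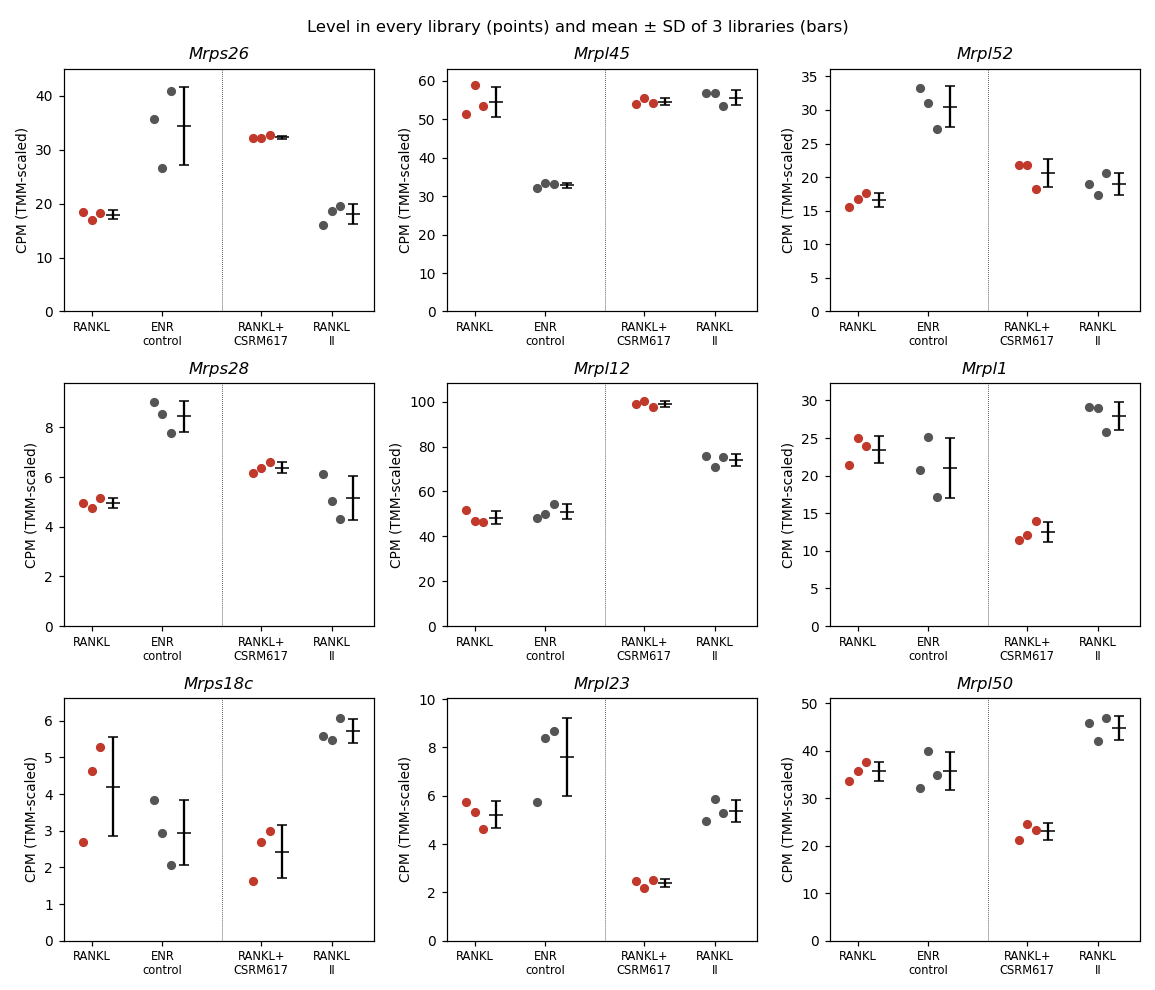
TMM-scaled CPM of 9 genes in every library (points; red for RANKL and RANKL+CSRM617, grey for ENR control and RANKL II), with the mean ± SD of 3 libraries beside them; the dotted line parts the 2 comparisons, which were scaled separately. Mrps26 lies between 17.0 and 18.5 CPM in RANKL, below ENR control, and between 32.1 and 32.7 CPM in RANKL+CSRM617, above RANKL II.

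With CSRM617 added to RANKL, the family had more genes lower than higher. By edgeR over 14167 genes tested, 14 of the 77 were higher and 35 lower, or 18.2% and 45.5%, beside a background of 35.2% of all genes higher and 36.2% lower (71.4% either way). The groups did not overlap for 15 members that were higher and 35 that were lower, beside 36.1% and 37.0% of all genes. The median log2 fold change was -0.19 over the family, against -0.02 over all genes, with a range of -1.19 to 0.83. The excess of lower over higher calls was larger with GC offsets, at 8 higher and 37 lower on a background of 32.7% and 30.7% (63.4% either way), with a median of -0.16 against 0.00 over all genes. With GC and length offsets together it was smaller, at 13 higher and 30 lower on a background of 31.4% and 30.9% (62.3% either way), with a median of -0.11. In all 3 fits 25 genes were called lower and 4 higher (Mrpl18, Mrpl27, Mrpl51 and Mrps26). Of the 49 calls, 42 were made whichever library was left out, and the others were Mrpl40, Mrpl43, Mrpl51, Mrpl57, Mrps15, Mrps31 and Mrps33. Falls of 2-fold or more were seen for 4 genes, and no gene rose by that much.

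Summed over the family, the level was 1608 to 1627 CPM in RANKL+CSRM617, against 1777 to 1801 CPM in RANKL II. The sum lay at 1638 to 1665 CPM in RANKL, against 1699 to 1857 CPM in ENR control. In both comparisons the 2 groups do not overlap. Genes with an Mrpl symbol summed to 1103 ± 7.97 CPM in RANKL+CSRM617, against 1216 ± 4.85 CPM in RANKL II. Those with an Mrps symbol summed to 516.0 ± 4.84 CPM, against 570.3 ± 8.74 CPM (SD, n = 3). In these bulk samples, fewer cells of a type and less RNA per cell cannot be told apart.

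The 4 largest falls with CSRM617 were in Mrps18c, Mrpl23, Mrpl1 and Mrpl35. Mrps18c, 1 of 3 counterparts of the bacterial protein S18, had 1.62, 2.69 and 2.98 CPM in RANKL+CSRM617, against 5.59, 5.46 and 6.09 CPM in RANKL II. The log2 fold change was -1.19 (SE 0.19, edgeR adjusted p = 4.51e-07), and part of its exons (23.2%) overlaps Gm43511 on the same strand. Its relatives Mrps18a and Mrps18b, of the large and the small subunit, were not called (0.16 and -0.19). Mrpl23 had 2.49, 2.2 and 2.5 CPM in RANKL+CSRM617, against 4.97, 5.87 and 5.29 CPM in RANKL II. Its log2 fold change was -1.17 (SE 0.19, edgeR adjusted p = 5.33e-07) and -1.62 with GC offsets. Its transcript has 59.0% GC, and it was the only 1 of the 19 members over 54% GC to fall by 2-fold or more. Its pseudogene entry had at most 3 counts in a library, so its level is uncertain in the way of Mrps36.

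Mrpl1, the counterpart of the bacterial L1 protein that forms the stalk at the tRNA exit, had 11.5, 12.1 and 13.96 CPM in RANKL+CSRM617, against 29.1, 28.95 and 25.8 CPM in RANKL II. The groups are far apart, with a log2 fold change of -1.14 (SE 0.09, edgeR adjusted p = 3.73e-15). It was still called with GC offsets, at -0.57. Mrpl35, a bacterial-type protein, had 8.01, 7.17 and 8.23 CPM in RANKL+CSRM617, against 17.9, 15.8 and 16.3 CPM in RANKL II, with a fitted log2 value of -1.10 (SE 0.11, edgeR adjusted p = 5.11e-12) and of -0.70 when GC was offset. Among mitochondria-specific proteins of the large subunit, Mrpl41 had 5.3, 3.75 and 5.32 CPM in RANKL+CSRM617, against 9.64, 10.4 and 8.25 CPM in RANKL II. Mrpl50 had 21.2, 24.7 and 23.2 CPM in RANKL+CSRM617, against 45.8, 42.03 and 46.9 CPM in RANKL II. For both genes the groups lie far apart. Mrpl41, Mrpl50 and Mrpl42 fell by 0.97, 0.96 and 0.96 on the log2 scale (edgeR adjusted p = 1.68e-07, 2.74e-16 and 6.94e-14). With GC offsets they stood at -1.13, -0.45 and -0.81.

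Mrps26 was the largest rise with CSRM617. It had 32.1, 32.3 and 32.7 CPM in RANKL+CSRM617, against 16.1, 18.6 and 19.6 CPM in RANKL II, a log2 fold change of 0.83 (SE 0.08, edgeR adjusted p = 9.9e-13). Offsetting GC gave 0.84 and with GC and length offsets 0.77. The 2 groups do not overlap, and the RANKL+CSRM617 libraries lie within the range of the ENR control libraries of the other table (26.7 to 40.9 CPM), a comparison across tables that were scaled separately and so has no test. Only 8 bases of its exons overlap another annotated gene.

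The other rises were smaller, and of the 14 calls 4 were also made with GC offsets. Mrps12 (0.45), Mrpl38 (0.44), Mrpl12 (0.42), Mrpl27 (0.40), Mrps34 (0.37) and Mrpl4 (0.37) were called higher by edgeR, and Mrpl27, the counterpart of a bacterial protein at the peptidyl transferase centre, was the only 1 of these 6 that was also called with GC offsets (0.28). Mrps12 had 12.9, 11.9 and 10.8 CPM in RANKL+CSRM617, against 7.98, 9.79 and 8.17 CPM in RANKL II. Mrpl38 had 55.5, 56.8 and 54.7 CPM in RANKL+CSRM617, against 43.5, 39.6 and 40.2 CPM in RANKL II. Neither gene's groups overlap. Mrpl27 had 12.3, 12.7 and 10.1 CPM in RANKL+CSRM617, against 8.39, 8.14 and 9.77 CPM in RANKL II. Mrps34 had 17.4, 15.3 and 15.8 CPM in RANKL+CSRM617, against 14.1, 12.6 and 10.97 CPM in RANKL II. For Mrpl27, Mrps34 and Mrpl4 every RANKL+CSRM617 library lay above every RANKL II library. Mrpl4 had 20, 21.7 and 19.0 CPM in RANKL+CSRM617, against 16.4, 15.9 and 15.0 CPM in RANKL II. Mrpl12 forms the flexible stalk that recruits translation factors, and human MRPL12 also binds the mitochondrial RNA polymerase. It had 98.99, 100.3 and 97.5 CPM in RANKL+CSRM617, against 75.9, 70.8 and 75.4 CPM in RANKL II. The groups do not overlap (SE 0.04, edgeR adjusted p = 3.81e-11), but the log2 fold change was 0.07 with GC offsets (edgeR adjusted p = 0.144) and 0.21, called, with GC and length offsets. The stalk base proteins Mrpl10 and Mrpl11 were at 0.09 and 0.14 and not called. The exons of Mrps34 overlap those of Mapk8ip3 on the opposite strand over 63.4% of their length, and whether the counting used strand is not known. They also overlap those of Nme3 on the same strand over 37% of their length, so Mrps34 may share reads with both.

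**Figure D2:**
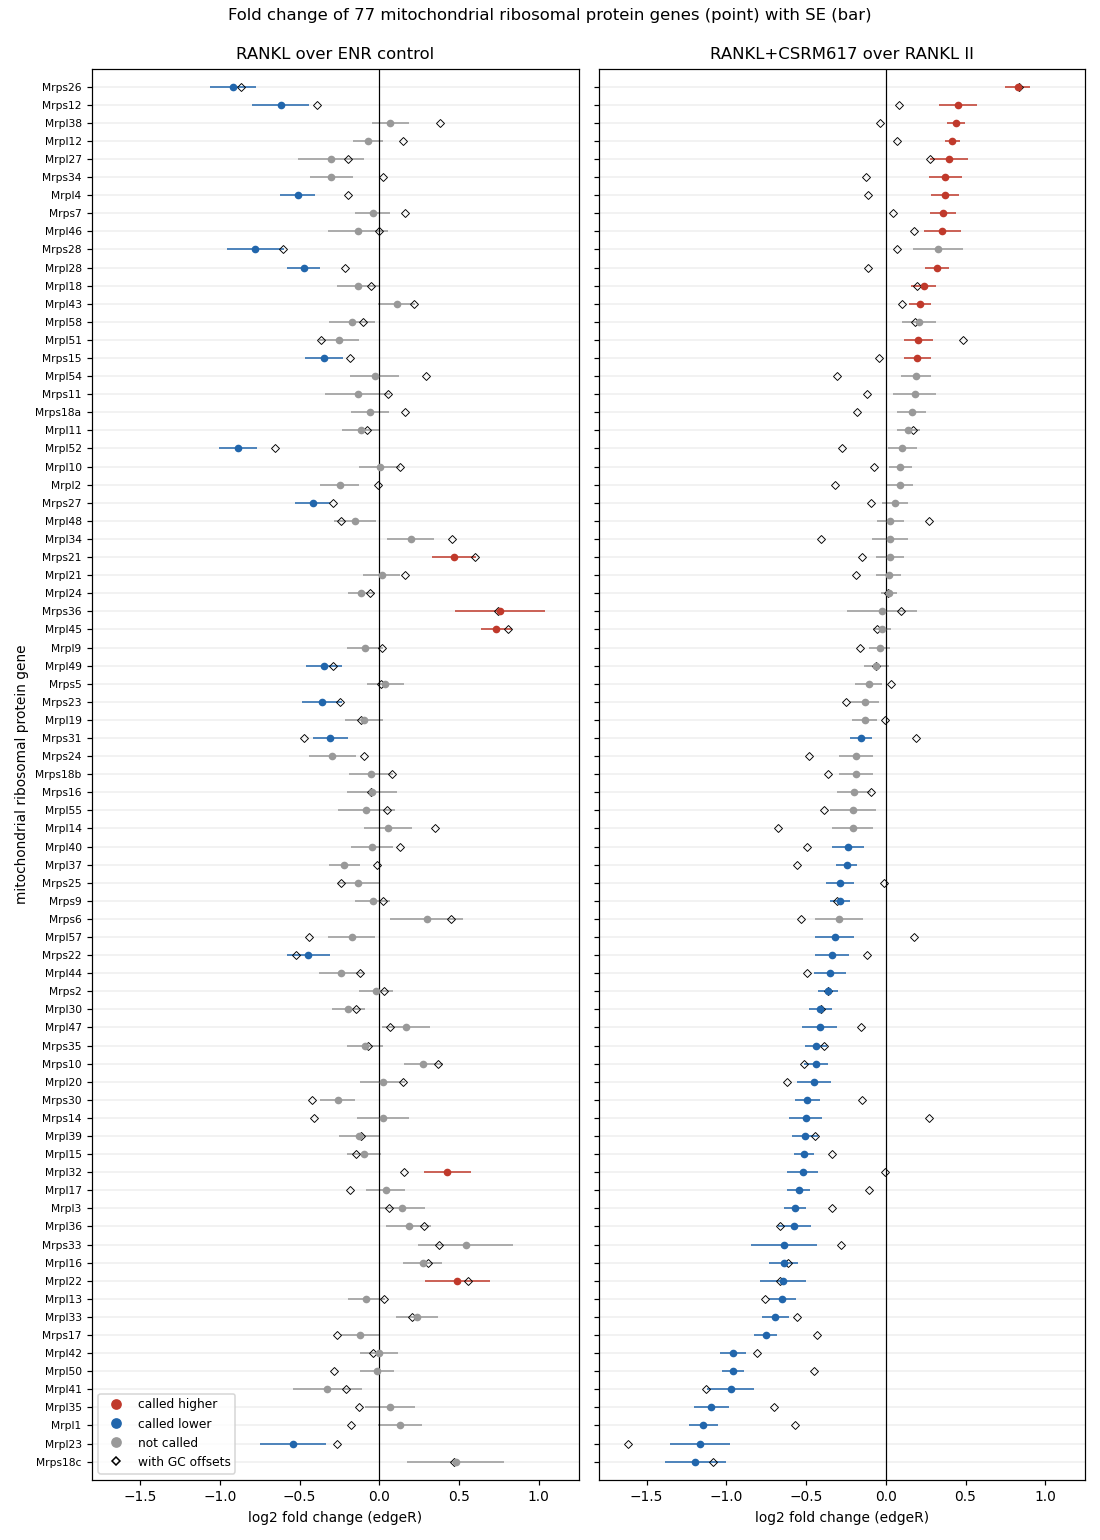
Log2 fold change (x axis) of the 77 genes tested, ordered by the change with CSRM617, in RANKL over ENR control (left) and RANKL+CSRM617 over RANKL II (right); points are coloured by the edgeR call, bars are SE and open diamonds are the values with GC offsets. On the right the points run from -1.19 (Mrps18c) to 0.83 (Mrps26), with 35 called lower and 14 higher.

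With CSRM617 each class of both subunits held more lower than higher calls, read beside 35.2% of all genes higher and 36.2% lower. Of the bacterial-type large subunit genes, 5 of 30 were higher and 15 lower, and of the mitochondria-specific large subunit genes, 4 of 20 were higher and 9 lower. The small subunit had 3 higher and 6 lower of 15 bacterial-type genes and 2 higher and 5 lower of 11 mitochondria-specific genes. The shares called lower, 50.0% and 45.0% in the large subunit and 40.0% and 45.5% in the small, lie above that of all genes. With GC offsets they were 60.0% and 45.0% in the large subunit and 46.7% and 27.3% in the small, beside 30.7% of all genes. With GC and length offsets the last class had 2 higher and 1 lower. Of the single proteins with their own roles, Mrpl44, which has an RNase III fold, was at -0.24 with RANKL (not called) and fell with CSRM617 (-0.35, edgeR adjusted p = 0.00185, and -0.49 with GC offsets). Mrpl58, a peptidyl-tRNA hydrolase built into the large subunit, was called in neither comparison (-0.17 and 0.21). Mrps30, which sits in the large subunit despite its symbol, was at -0.26 with RANKL (not called, but -0.42 and called lower with GC offsets) and fell with CSRM617 (-0.49), a call that GC offsets ended (-0.15). Mrps2 and Mrps5, bacterial-type proteins of the small subunit, were not called with RANKL (-0.02 and 0.04). With CSRM617 Mrps2 fell (-0.36 in both the main fit and that with GC offsets) and Mrps5 was not called (-0.11). Differences between classes were not tested.

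**Figure D3:**
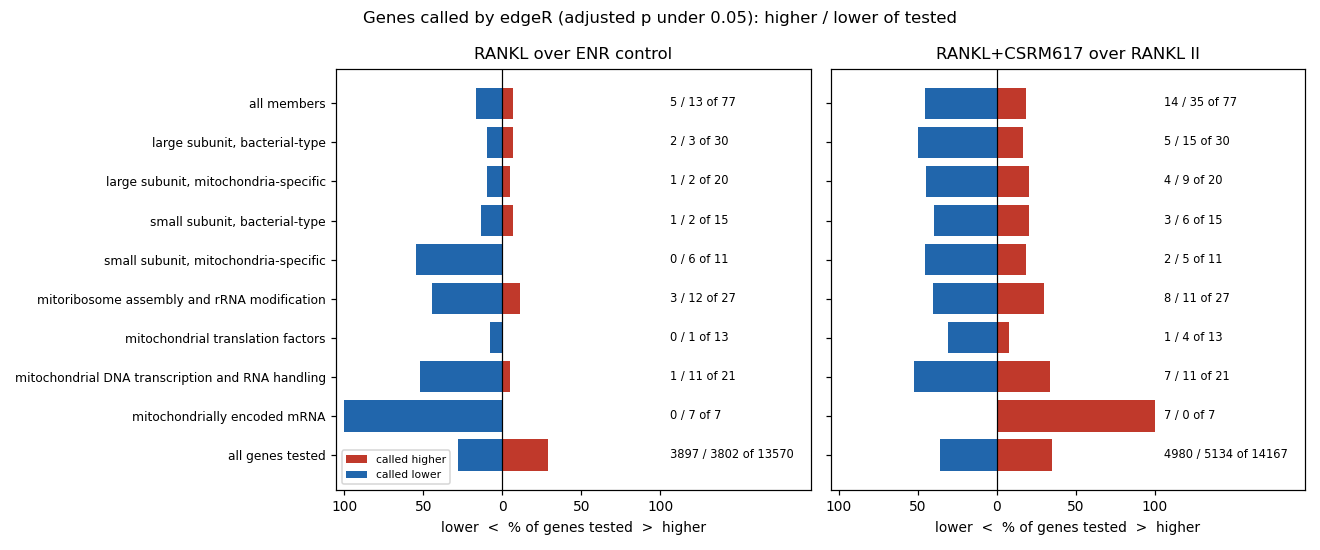
Share of genes tested that edgeR called higher (red, right of 0) or lower (blue, left of 0) in each subunit class, in the other lists of mitochondrial translation and, at the bottom, over all genes, with the counts of higher / lower beside each bar. In RANKL over ENR control the small subunit mitochondria-specific class has 6 lower of 11, and the mitochondrially encoded mRNAs have 7 lower of 7, against 7 higher of 7 in RANKL+CSRM617 over RANKL II.

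Opposite calls in the 2 comparisons, which share no library, were made for 5 members in one order and 2 in the other. These are 6.49% and 2.6% of the 77, below the 14.3% and 15.7% of the 13263 genes tested in both comparisons. With GC offsets they were 4 and 4 (5.19% each), beside 10.2% and 11.1%. Lower with RANKL and higher with CSRM617 were Mrps26, Mrps12, Mrpl4, Mrpl28 and Mrps15, and higher with RANKL and lower with CSRM617 were Mrpl22 and Mrpl32. Mrpl22 had 6.96, 7.23 and 6.64 CPM in RANKL, against 5.57, 5.33 and 3.66 CPM in ENR control. It had 7.9, 4.97 and 5.32 CPM in RANKL+CSRM617, against 10.3, 8.65 and 8.89 CPM in RANKL II (log2 fold change -0.64, SE 0.15, edgeR adjusted p = 0.000138). Its groups do not overlap in either comparison. Mrpl28 had 27.6, 28.4 and 24.8 CPM in RANKL, against 38.6, 37.8 and 35.9 CPM in ENR control, and 32.9, 30.7 and 29.4 CPM in RANKL+CSRM617, against 25.9, 26.0 and 22.7 CPM in RANKL II. Mrps15 had 19.1, 17.9 and 20.3 CPM in RANKL, against 22.3, 26.1 and 24.0 CPM in ENR control, and 21.1, 21.1 and 24.4 CPM in RANKL+CSRM617, against 20.3, 18.5 and 19.4 CPM in RANKL II. Neither of its comparisons has groups that overlap, but Mrps15 lost both of its calls (-0.35 and 0.20) in some fits that left out 1 library (edgeR adjusted p up to 0.102 and 0.208). Mrpl32, a bacterial-type protein known in mouse as a substrate of the m-AAA protease, had log2 fold changes of 0.43 with RANKL and -0.52 with CSRM617, which were 0.16 and -0.01 with GC offsets and then not called. It had 20.2, 18.1 and 17.3 CPM in RANKL, against 11.5, 16.4 and 12.8 CPM in ENR control, and 12.7, 12.9 and 13.1 CPM in RANKL+CSRM617, against 17.2, 20.9 and 17.7 CPM in RANKL II. Of these genes, only Mrps26 and Mrpl22 were called in both comparisons with GC offsets. Mrpl45, which rose with RANKL, was at 53.99, 55.5 and 54.4 CPM in RANKL+CSRM617, against 56.8, 56.8 and 53.5 CPM in RANKL II, with a log2 fold change of -0.02 (SE 0.05). In neither comparison were 20 genes called, and 0 were called higher in both, beside 7.7% of the genes tested in both. Called lower in both were Mrps22, Mrps31 and Mrpl23, or 3.9% of the 77, beside 5.62% of the genes tested in both. Mrps31 was higher with CSRM617 when GC was offset (0.19), Mrps22 was then not called (-0.12), and each of the 3 thus met a fit that ended 1 of its calls. With GC offsets, other members were called lower in both: Mrpl52, Mrps17 and Mrpl50, or 3.9%, beside 6.75% of the genes tested in both.

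The fold changes followed transcript GC content across genes, in the family as over the whole table. Across the 77 genes, whose reference transcripts have 39.6% to 60.6% GC, Spearman's rho between the log2 fold change with CSRM617 and GC content was 0.57, against 0.59 over all genes. In RANKL over ENR control it was -0.26, against -0.33. These are descriptions across genes that share libraries, and genes are not independent replicates. Among the 21 family members under 47% GC, 18 were lower with CSRM617, beside 66.8% of all genes in that range. Of the 19 over 54% GC, 7 were higher and 3 lower, beside 62.9% and 9.9% of all genes in that range. With GC offsets the same 2 ranges had 8 lower and 4 higher of 21, and 9 lower and 0 higher of 19. Over all genes at any GC content, that fit called 30.7% lower and 32.7% higher. Shares of all genes within the 2 ranges were computed for the main fit only. The cause of the relation with GC content was not tested.

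**Figure D4:**
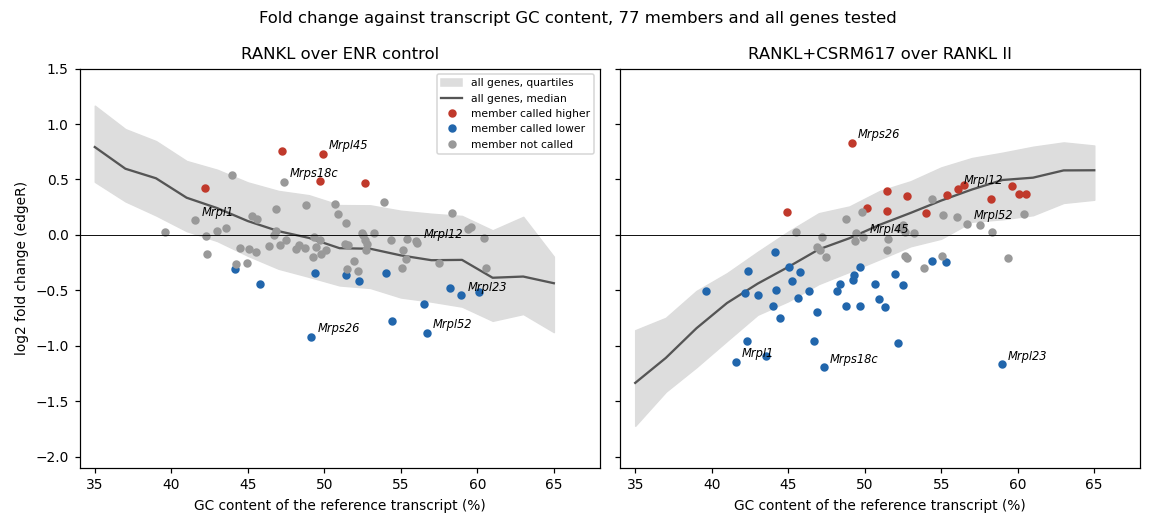
Log2 fold change (y axis) against GC content of the reference transcript (x axis, %) for the 77 genes tested (points, coloured by the edgeR call), with the median (line) and quartiles (grey band) of all genes tested in steps of GC content. In RANKL+CSRM617 over RANKL II the median of all genes runs upwards with GC content, Mrpl23 and Mrps18c lie below the band and Mrps26 above it.

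Genes that act with this ribosome were read beside it. Of the 5 mitochondrial ribosomal proteins that carry other symbols, Ptcd3 was higher with RANKL (0.36) and Dap3 and Gadd45gip1 lower (-0.28 and -0.38), none of them with GC offsets. Dap3 and Gadd45gip1 also lost the call in fits without 1 library (edgeR adjusted p up to 0.0623 and 0.146). With CSRM617, Ptcd3 and Chchd1 were lower (-0.67 and -0.26) and Gadd45gip1 higher (0.40), of which Ptcd3 was also called with GC offsets (-0.23). The call of Chchd1 was lost without RANKL II replicate 2 and without either of RANKL+CSRM617 replicates 2 and 3 (edgeR adjusted p = 0.0617 to 0.14). Of 13 translation factors tested, 0 were higher and 1 (7.69%) lower with RANKL, below the shares of all genes (28.7% and 28.0%). With CSRM617, 1 (7.69%) was higher and 4 (30.8%) lower, both below the shares of all genes (35.2% and 36.2%). When GC was offset, 1 was higher and 5 (38.5%) lower with CSRM617, beside 32.7% and 30.7% of all genes. The share called lower then lay above that of all genes. The fall with RANKL was Oxa1l, which inserts nascent proteins into the inner membrane, at 52.4 ± 2.5 CPM in RANKL, against 81.7 ± 8.7 CPM in ENR control (SD, n = 3; log2 fold change -0.65, SE 0.10, edgeR adjusted p = 3.1e-05). With CSRM617, Guf1, a GTPase that acts on the ribosome, and Mrrf, the ribosome recycling factor, fell by 0.90 and 0.52 on the log2 scale, and by 0.41 and 0.54 with GC offsets. The elongation factor Tufm was at 0.27 and called higher, but at -0.08 with GC offsets.

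Assembly factors moved in both directions. With RANKL, 3 of 27 (11.1%) were higher and 12 (44.4%) lower with a median log2 fold change of -0.31, beside 28.7% and 28.0% of all genes. The rRNA methyltransferase Mrm1 and the factor Rcc1l were at -0.79 and -0.78, while Nsun4, also an rRNA methyltransferase, and Mterf3 were both at 0.78. All 4 were called with GC offsets. With CSRM617, 8 (29.6%) were higher and 11 (40.7%) lower (median log2 fold change -0.02), which lies near the shares of all genes. When GC was offset 3 (11.1%) were higher and 11 (40.7%) lower, beside 32.7% and 30.7% of all genes. Malsu1, which guards the large subunit during its assembly, and Fastkd2 had log2 fold changes of -1.02 and -0.96 (-0.69 and -0.45, still called, with GC offsets), and Rbfa, a factor of small subunit maturation, of 0.68 (0.21 with GC offsets).

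A list of 21 genes that copy or transcribe mitochondrial DNA or handle its RNA was also read. It includes Polg, Polg2, Twnk and Ssbp1, which act in copying the DNA. With RANKL, 1 gene (4.76%) was higher and 11 (52.4%) lower, beside 28.7% and 28.0% of all genes. With CSRM617, 7 (33.3%) were higher and 11 (52.4%) lower, beside 35.2% and 36.2%. When GC was offset, 7 were higher and 7 lower with CSRM617 (33.3% each), which lies near the 32.7% and 30.7% of all genes. Polrmt, the mitochondrial RNA polymerase, averaged 26.8 ± 0.81 CPM in RANKL, against 47.5 ± 6.5 CPM in ENR control, a log2 fold change of -0.81 (SE 0.11, edgeR adjusted p = 1.9e-05). It averaged 54.1 ± 1.54 CPM in RANKL+CSRM617, against 23.3 ± 1.62 CPM in RANKL II, a log2 fold change of 1.21 (SE 0.07, edgeR adjusted p = 1.3e-20), and was called with GC offsets in both (-0.47 and 0.70). Tfam, which packages and transcribes mitochondrial DNA, had log2 fold changes of -0.30 and -0.58, and its call with RANKL ended without ENR control replicate 2 and without either of RANKL replicates 1 and 2 (edgeR adjusted p = 0.134 to 0.208). The RNA-binding protein Lrpprc was at -0.24 in both comparisons and called lower in both, but with RANKL not without RANKL replicate 2 or 3 (edgeR adjusted p = 0.0587 to 0.0806). Twnk, the mitochondrial helicase, shares 33.4% of the exon length of Mrpl43 on the other strand, and the log2 fold changes with CSRM617 were 0.61 for Twnk and 0.22 for Mrpl43.

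The mRNAs that this ribosome translates moved by more than the mRNAs of its proteins. Of the 13 mitochondrially encoded mRNAs, 7 passed the filter. The rest had too few counts to be tested, for a reason that was not examined, so the sums below need not reflect them. All 7 were lower with RANKL, beside 28.0% of all genes, with a median log2 fold change of -1.72 (-2.51 with GC offsets). With CSRM617 all 7 were higher, beside 35.2% of all genes, with a median of 0.96 (2.11 with GC offsets). Summed, the mitochondrially encoded mRNAs stood at 21734 to 24873 CPM in RANKL, against 54720 to 105230 CPM in ENR control, and at 95066 to 124786 CPM in RANKL+CSRM617, against 54053 to 54346 CPM in RANKL II. The mitochondrial ribosomal RNAs mt-Rnr1 and mt-Rnr2 were not called in either comparison and varied widely. Ribosomal RNA was depleted before sequencing, and together they took 0.00511% to 0.0740% of the counts in a library. Their levels in these libraries therefore need not be those in the cells. With RANKL their log2 fold changes were -2.16 (SE 0.86, edgeR adjusted p = 0.0954) and 0.32 (adjusted p = 0.463). The value of mt-Rnr1 was -1.02 without ENR control replicate 1, which had 64.9 CPM against 14.4 and 12.6 CPM in the other ENR control libraries, and was then called (edgeR adjusted p = 0.000811). DESeq2 called it as well (adjusted p = 0.013), and mt-Rnr2 was called higher without the same library (0.69, edgeR adjusted p = 0.00743). With CSRM617 they were -0.50 (edgeR adjusted p = 0.607) and -1.05 (adjusted p = 0.112), with mt-Rnr2 called lower by DESeq2 (adjusted p = 0.0448). With CSRM617 the summed level of the ribosome's nuclear genes and that of the mitochondrial mRNAs lay on opposite sides of RANKL II, while with RANKL both sums lay below ENR control.

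**Figure D5:**
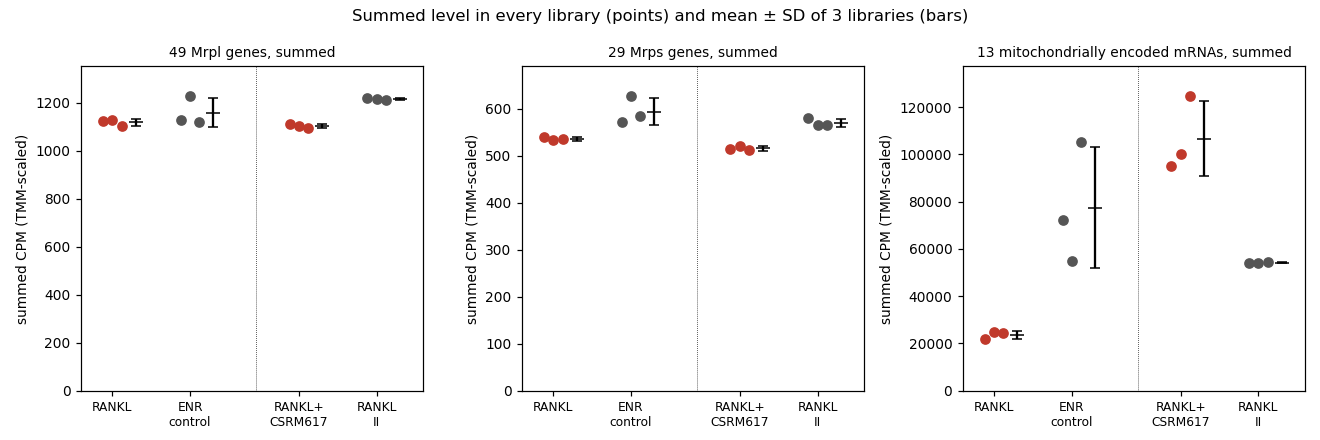
Summed TMM-scaled CPM (y axes start at 0) of the Mrpl genes, the Mrps genes and the mitochondrially encoded mRNAs in every library (points; red for RANKL and RANKL+CSRM617, grey for ENR control and RANKL II), with the mean ± SD of 3 libraries. The mitochondrial mRNAs lie at 95066 to 124786 CPM in RANKL+CSRM617, against 54053 to 54346 CPM in RANKL II, while both sets of nuclear genes lie lower in RANKL+CSRM617.

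Markers of the epithelial cell types differed between the groups. Of the stem cell markers (Lgr5, Olfm4, Smoc2, Ascl2) 4 of 4 had counts in each group, with summed levels of 423 to 673 CPM in RANKL, against 1524 to 1924 CPM in ENR control, and of 101 to 103 CPM in RANKL+CSRM617, against 82.7 to 86.4 CPM in RANKL II. Single members went against these sums, as Ascl2 averaged 27.98 CPM in RANKL, against 11.97 CPM in ENR control, and Lgr5 6.24 CPM in RANKL+CSRM617, against 11.4 CPM in RANKL II. The enterocyte markers (Alpi, Apoa4, Fabp1, Sis), also with counts for 4 of 4, summed to 1743 to 2586 CPM in RANKL, against 668 to 743 CPM in ENR control, and to 6197 to 6344 CPM in RANKL+CSRM617, against 2484 to 2533 CPM in RANKL II. Of these, Fabp1 went the other way with RANKL, at 6.01 CPM in RANKL, against 19.3 CPM in ENR control. Paneth cell markers summed to 116 to 135 CPM in RANKL, against 464 to 797 CPM in ENR control, and to 648 to 677 CPM in RANKL+CSRM617, against 189 to 198 CPM in RANKL II. Goblet cell markers (Muc2, Clca1, Tff3, Fcgbp) summed to 1869 to 2701 CPM in RANKL, against 991 to 1046 CPM in ENR control. They summed to 3702 to 3868 CPM in RANKL+CSRM617, against 2684 to 2754 CPM in RANKL II. Of these, Muc2 went the other way with RANKL, at 96.9 CPM in RANKL, against 178.6 CPM in ENR control. With CSRM617, Tff3 went the other way, at 79.7 CPM in RANKL+CSRM617, against 118.8 CPM in RANKL II. The M cell markers summed to 689 to 718 CPM in RANKL, against 13.6 to 19.6 CPM in ENR control, where Gp2 and Sox8 were at 0. They summed to 724 to 749 CPM in RANKL+CSRM617, against 718 to 740 CPM in RANKL II. Behind this sum, Spib averaged 287.6 CPM in RANKL+CSRM617, against 221.0 CPM in RANKL II, and Sox8 and Tnfaip2 were also higher. Ccl20 averaged 109.1 CPM in RANKL+CSRM617, against 141.7 CPM in RANKL II, and Gp2 0.712 CPM, against 2.07 CPM. Anxa5 was also lower. The part of these shifts in the values of the ribosomal protein genes was not tested.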

How the data were processed

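RNA was measured in 12 libraries, 4 groups of 3. The authors deposited 2 tables of raw counts per gene symbol, 1 for each comparison. The submitters' processing notes name mm10 (GRCm38) as the build, with the tools STAR, DESeq2 1.34.0 and HTSeq 0.13.5. Per the labels' protocols, ribosomal RNA was depleted from 1 µg of RNA and libraries were sequenced as 42-bp pairs. Neither annotation nor strand setting was given in the sources used. The authors also deposited normalized values, whose range is that of a log2 scale.

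The main test was edgeR 4.0.16 in R 4.3.3 (quasi-likelihood, robust, TMM factors, filterByExpr, no covariate), per comparison and over all genes, with Benjamini-Hochberg adjustment. Each comparison used its own 6 libraries. CPM is TMM-scaled within a table. The SE is the log2 fold change, with no shrinkage, divided by the root of F. The GC and length offsets are loess fits (span 0.3) per library on transcripts of GENCODE vM21. Alternatives were RLE and upper-quartile factors, no filter (at least 1 count) or a stricter one (20 counts in 3 libraries), DESeq2 1.42.0, limma 3.58.1 on the deposited log2 values, a replicate block and leaving out each library. The fit was tested on simulated counts. Every member may be named. The 6 called members with the largest change each way in each comparison (5 were called higher with RANKL), opposite calls, extreme levels and a fixed set are described. Members and lists were chosen with earlier results of these data known.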

Additional observations from a re-analysis of the deposited data

How the results depend on the processing

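The number of genes called higher with RANKL (5) was the least stable count. It was 3 with no filter on low counts, 3 with DESeq2, 8 with GC offsets, 8 with length offsets, 9 with GC and length offsets, and 2 to 8 when 1 library was left out (2 without ENR control replicate 3 and 8 without ENR control replicate 2). With CSRM617 the count called higher (14) was 8 with GC offsets and 8 with the replicate block and GC offsets, which gave 8 with RANKL. The other counts stayed within 1.5 times. The median log2 fold change of the members was -0.08 with RANKL (-0.11 to -0.02 over the alternatives, nearest 0 without ENR control replicate 2) and -0.19 with CSRM617 (-0.23 to -0.11, nearest 0 with length offsets). With the replicate block alone, 4 were higher and 12 lower with RANKL and 14 higher and 35 lower with CSRM617, and the calls of Mrpl22 and Mrpl23 with RANKL were lost (edgeR adjusted p = 0.0577 and 0.0503) while Mrrf became lower (0.0446). No other call changed among the members and the list genes named by the rule. The labels number the experiments in each group without saying that groups share them. Libraries with the same number did not deviate together (correlations of 0.00407, 0.05695 and -0.00689 for RANKL with ENR control, and -0.01109, 0.01269 and 0.00453 for RANKL+CSRM617 with RANKL II), so the numbers were not taken to pair the samples.

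Among genes called in the main fit, in the alternative fit or in both, signs changed in the fits with GC offsets and in no other. Only Mrps14 and Mrps31, with CSRM617, were called in both fits with opposite signs. Every other gene listed was called in just 1 of the fits compared, as Mrpl38 in the main fit (edgeR adjusted p = 0.616 with GC offsets). With CSRM617, the log2 fold changes with GC offsets were Aurkaip1 -0.26, Gtpbp6 -0.024, Mrpl2 -0.32, Mrpl21 -0.19, Mrpl28 -0.11, Mrpl34 -0.41, Mrpl38 -0.034, Mrpl4 -0.11, Mrpl52 -0.28, Mrpl54 -0.30, Mrpl57 0.18, Mrps14 0.27, Mrps15 -0.043, Mrps31 0.19, Mrps34 -0.13, Tufm -0.080. With the replicate block as well they were Aurkaip1 -0.25, Gtpbp6 -0.026, Mrpl2 -0.32, Mrpl21 -0.18, Mrpl28 -0.11, Mrpl34 -0.41, Mrpl38 -0.033, Mrpl4 -0.12, Mrpl52 -0.27, Mrpl54 -0.31, Mrpl57 0.18, Mrps14 0.27, Mrps15 -0.037, Mrps31 0.19, Mrps34 -0.12, Tufm -0.080. With GC and length offsets they were Dap3 -0.12, Mrpl57 0.17, Mrps14 0.25, Mrps22 0.042, Mrps31 0.30, Mterf3 0.022. With RANKL, Mrps14 was at -0.41 with GC offsets, -0.41 with GC and length offsets and -0.39 with the replicate block and GC offsets. The cause was not tested. Depth limits the genes with few counts most: with RANKL the SE of the log2 fold change was 0.28 for Mrps36 and 0.30 for both Mrps33 and Mrps18c, against a median of 0.13 over the members.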
